A study of Drosophila melanogaster with 2 samples.

Results

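The 4 long non-coding RNA (lncRNA) genes of Drosophila melanogaster described here lay beside some of the strongest binding sites of the CG31224 protein in embryos: lncRNA:CR45297, lncRNA:CR44867, lncRNA:CR44366 and lncRNA:CR45352. They were chosen by the signal of the peaks described here, as the lncRNA genes whose transcription start site (TSS) was nearest to a peak among the 20 with the highest signal values. They are 4 of 1945 lncRNA genes and of 17796 annotated genes on chromosome arms 2L, 2R, 3L, 3R and chromosomes 4, X and Y. All 4 had a peak summit within 500 bp of the TSS, at 51 to 216 bp, where 4.99% of all lncRNA genes (97 of 1945) had one. That share is the background only: the choice of the genes used the same peaks, so their high signal is a description and no test was made of it.

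The data are peak lists from chromatin immunoprecipitation with sequencing (ChIP-seq), in which DNA bound by a protein is enriched with an antibody and sequenced. Whole embryos of a transgenic strain, aged 0 to 24 h, carried an insertion for CG31224 fused to enhanced green fluorescent protein, and an anti-GFP antibody was used. There were 2 biological replicates in 1 group, with the same genotype, stage and antibody, and no other condition. A collection of whole embryos mixes all embryonic stages and tissues, so binding in few cells and weak binding in many cannot be told apart, and the control library named for the experiment was not analysed here.

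CG31224 is predicted to be a C2H2 zinc finger protein, a class of proteins that contact DNA through small zinc-holding domains. LncRNA genes are transcribed but have no long open reading frame, and most of those annotated in the fly have no known function; the best known, the roX RNAs, act in dosage compensation of the male X chromosome. No function is given here for any of the 4 genes. A peak near such a gene can lie at its own start, at an enhancer of another gene, or at a site with no role in transcription, and peak positions alone do not separate these.

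The sequences under the strongest peaks are shown because the summits of enrichment lie in them. They do not show which bases the protein contacted. Each line gives the gene, the rank of the peak by signal among 3810 main-list peaks and the bases up to 50 to each side of the summit, from the plus strand of the RefSeq copy of the dm6 assembly. Capitals mark the 6-base word CAGGCG or its reverse complement CGCCTG, which was chosen after the data were seen, on strong peaks away from these genes. No sequence is printed for lncRNA:CR44366.
lncRNA:CR44867, rank 11, chr2L:15911692-15911792: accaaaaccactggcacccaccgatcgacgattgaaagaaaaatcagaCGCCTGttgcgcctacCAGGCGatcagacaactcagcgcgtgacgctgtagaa
lncRNA:CR44867, rank 25, chr2L:15909123-15909223: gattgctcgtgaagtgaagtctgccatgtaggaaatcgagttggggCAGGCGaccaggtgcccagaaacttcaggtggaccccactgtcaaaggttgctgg
lncRNA:CR44867, rank 30, chr2L:15909902-15910002: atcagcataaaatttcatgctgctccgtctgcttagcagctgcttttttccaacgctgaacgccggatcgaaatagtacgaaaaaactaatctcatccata
lncRNA:CR45297, rank 3, chr2L:4811679-4811779: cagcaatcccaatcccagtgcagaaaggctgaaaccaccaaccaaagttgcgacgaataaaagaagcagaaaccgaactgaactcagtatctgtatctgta
lncRNA:CR45297, rank 22, chr2L:4810286-4810386: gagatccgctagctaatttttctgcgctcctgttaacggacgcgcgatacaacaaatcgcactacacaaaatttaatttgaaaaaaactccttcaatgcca
lncRNA:CR45352, rank 15, chr2L:14021783-14021883: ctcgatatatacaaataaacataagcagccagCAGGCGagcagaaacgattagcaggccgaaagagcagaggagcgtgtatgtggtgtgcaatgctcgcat
lncRNA:CR45352, rank 31, chr2L:14024305-14024405: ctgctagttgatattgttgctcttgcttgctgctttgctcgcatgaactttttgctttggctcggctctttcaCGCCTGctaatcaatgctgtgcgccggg
The first sequence, under the strongest peak of lncRNA:CR44867, holds the word in both orientations, and the next of that gene holds it once. Both sequences of lncRNA:CR45352 hold it once, and neither sequence of lncRNA:CR45297 does, although that gene has the strongest of these peaks.

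The 4 genes are short and each has 1 exon and 1 TSS. lncRNA:CR45297 (FBgn0266835, chr2L:4811711-4811945, minus strand) is 235 bp long and lies outside other genes. lncRNA:CR44867 (FBgn0266161, chr2L:15911691-15912062, plus strand) is 372 bp long. It lies in an intron of beat-Ib, on the opposite strand; beat-Ib belongs to the beaten path family of cell-surface immunoglobulin proteins, named for a gene of motor axon guidance. lncRNA:CR44366 (FBgn0265497, chr2R:13578036-13579626, plus strand) is the longest at 1591 bp and lies outside other genes. lncRNA:CR45352 (FBgn0266892, chr2L:14021583-14022033, minus strand) is 451 bp long, and its nearest coding gene is NimC3, of the Nimrod family of EGF-repeat proteins known from phagocytic blood cells.

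The strongest peak of the group lay inside lncRNA:CR45297. Its signal value was 1966 in replicate 1, 1651 in replicate 2 and 3736 in the main list made from both, which ranked it 3 of 3810. The signal value is the authors' score for a peak, and its scale is not stated. Near these genes it was mostly, but not always, higher in the main list than in either replicate. An exception, 1319 bp upstream of lncRNA:CR44867, had 72.5 in the main list and 87.8 in replicate 1. Values are therefore compared here only within a list or between the replicates over the same peak. Both replicates placed the summit within 1 bp of the main one, 216 bp downstream of the TSS and 18 bp before the 3' end of the single exon. The nearest coding TSS, of CG15629, was 1280 bp away.

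Another strong peak lay 1609 bp downstream of the lncRNA:CR45297 start, beyond its 3' end, with 851 in replicate 1, 816 in replicate 2 and 1680 in the main list (rank 22). Between them, at 995 bp, a peak of 259 was higher in replicate 2 (149) than in replicate 1 (118). The 2 weaker peaks completed the 5 within 10 kb. One of 160 lay at 3525 bp downstream. The other, of 89.3, lay 9616 bp upstream, and 213 bp upstream of the coding gene CG15628; of the replicate thresholded lists only that of replicate 1 held it, at 56.1. None of the 5 summits was within 500 bp of CG15629 or CG3225, the nearer coding genes.

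The peak nearest to a start site was that of lncRNA:CR44867, 51 bp downstream of the TSS. It had 1404 in replicate 1, 1039 in replicate 2 and 2526 in the main list (rank 11). Replicate 1 was the higher, and the summits differed from the main one by at most 9 bp. The nearest coding TSS was that of CG13244, 5146 bp away, although the peak was inside the body of beat-Ib.

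A total of 10 main-list summits lay within 10 kb of the lncRNA:CR44867 TSS, in 5 peak intervals, since one interval can hold several summits. All lay between 2518 bp upstream and 2201 bp downstream. The strongest of the others, 2518 bp upstream, had 820 in replicate 1, 684 in replicate 2 and 1547 in the main list (rank 25). The next, 1739 bp upstream, had 739, 678 and 1379 (rank 30), with 2 smaller summits of 258 and 72.5 in the same interval. A summit of 566 lay 662 bp upstream, in the interval of the strongest one. On the downstream side a summit of 375 lay 76 bp inside lncRNA:CR44868, another lncRNA gene of the beat-Ib intron whose TSS is 867 bp from that of lncRNA:CR44867. Farther downstream lay summits of 210, 341 and 435, at 1144, 1913 and 2201 bp.

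lncRNA:CR44366 had the most peaks: 15 main-list summits in 12 intervals, 7 of them among the 100 strongest peaks of the list. Its strongest peak was not at its start but 1704 bp downstream, 114 bp beyond the 3' end, with 1203 in replicate 1, 810 in replicate 2 and 2106 in the main list (rank 14). Replicate 1 was again the higher. The summit closest to the start, 105 bp upstream, had 492, 394 and 892 (rank 64). A summit of 683 (rank 95) lay within the exon, at 762 bp, and one of 1152 (rank 38) shared the interval of the strongest peak, at 1915 bp.

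Further strong peaks lay on both sides of lncRNA:CR44366. At 1728 bp upstream, in an exon of lncRNA:CR44365, the signal was 624 in replicate 1, 444 in replicate 2 and 1069 in the main list (rank 45). At 6301 bp downstream one interval within introns of CG6191 and CG45088 held summits of 1441 (rank 27), 914 and 658. The nearest coding TSS, of CG42808, was 3779 bp from the lncRNA TSS, and the closest summit to it, of 113, lay 429 bp upstream of it. That summit also lay 227 bp upstream of lncRNA:CR44365.

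lncRNA:CR45352 had 4 summits within 10 kb. The strongest, 200 bp downstream of the TSS and inside the exon, had 1135 in replicate 1, 895 in replicate 2 and 1992 in the main list (rank 15). NimC3 was the gene of the nearest coding TSS, at 1625 bp. A peak 2322 bp upstream had 701, 644 and 1369 (rank 31) and lay 256 bp upstream of another lncRNA gene, lncRNA:CR31840. One of 463, at 3702 bp upstream, had 266 in replicate 1 and 193 in replicate 2. The weakest, of 86.3 at 357 bp upstream, was in the thresholded list of replicate 2 (79.9) and not in that of replicate 1. No summit lay within 500 bp of hll, which encodes an acyl-CoA synthetase, or of bgm, the bubblegum acyl-CoA synthetase of very long-chain fatty acids.

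**Figure D1:**
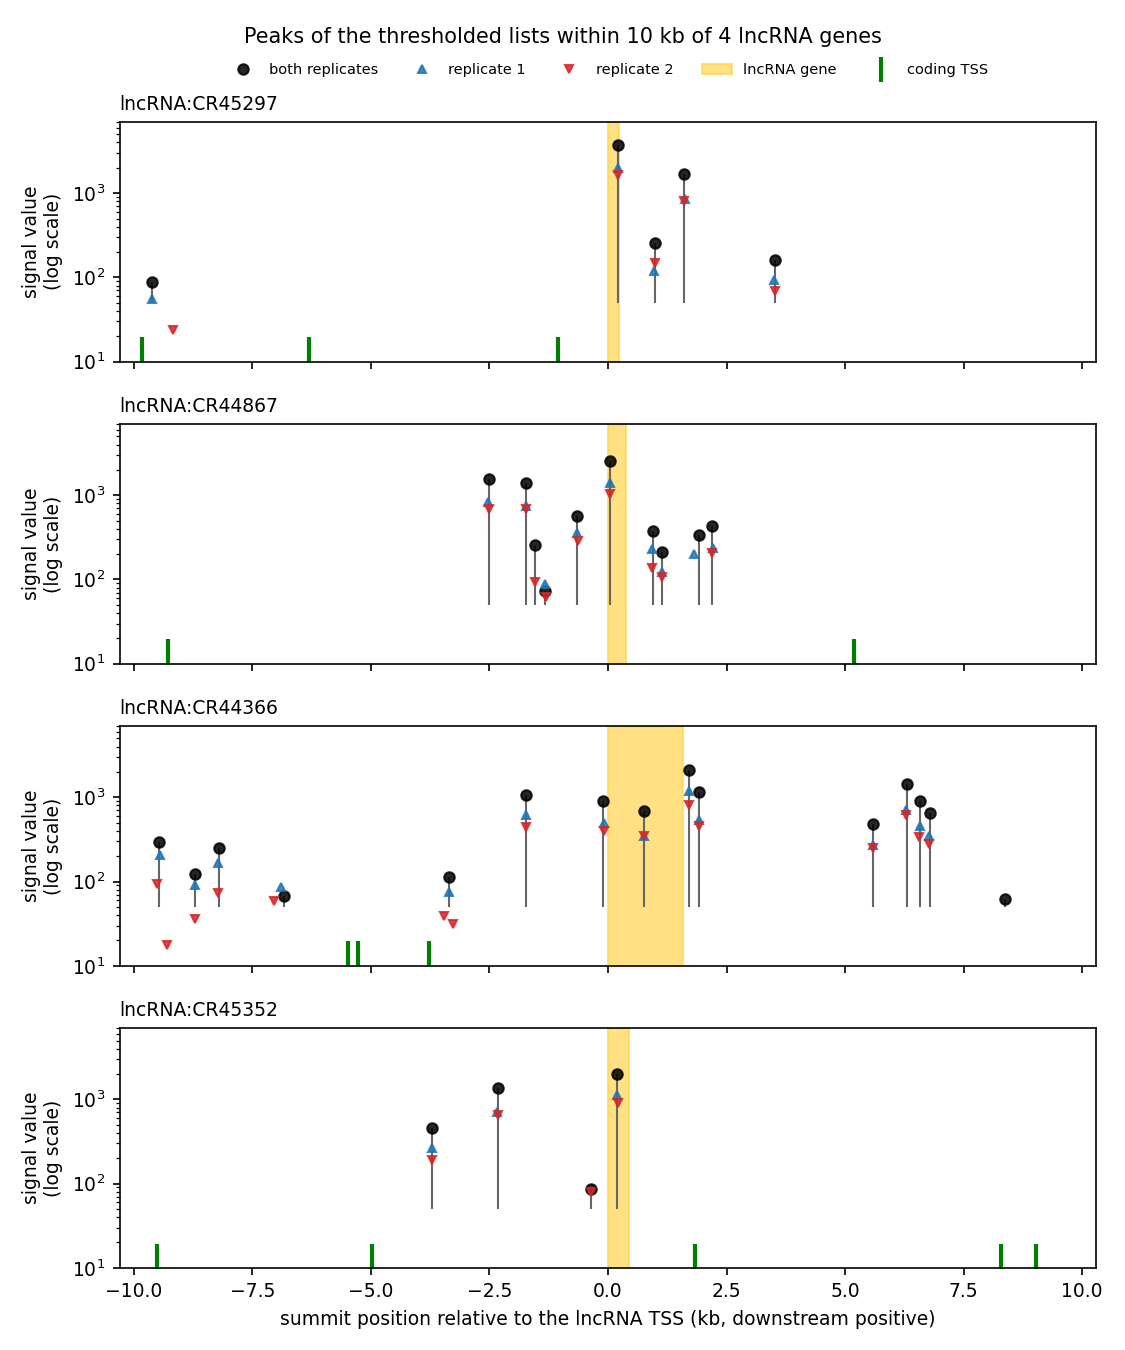
Signal values (log scale) of thresholded peaks against the position of the summit from the TSS of each of the 4 lncRNA genes, in kb, downstream positive. Black circles are the list from both replicates, triangles each replicate, yellow the lncRNA gene and green ticks coding TSSs. The highest circle of each panel, 3736, 2526, 2106 and 1992, lies at 216, 51, 1704 and 200 bp.

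The plot of signal against distance covers all 34 main-list summits near the 4 genes, 16 upstream and 18 downstream of the TSS, in 26 intervals. Their signal ran from 61.8 to 3736 with a median of 475, against a median of 89.1 over the main list. Of these, 14 were among the 100 strongest peaks and 30 were above the main-list median; this too follows in part from the choice of the genes. The irreproducible discovery rate (IDR) measures how well the ranks of peaks repeat between replicates. All 34 had an IDR score of 1000 in the main list, the highest the score allows, where the lowest score was 830. The share of all main-list peaks with 1000 is not given here, so nothing is read from this count. Other lists scored some lower. The summit 8365 bp downstream of lncRNA:CR44366 had 956 in the conservative list. That 6831 bp upstream of it had 60 in a ranked list made from both replicates.

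Most of these peaks were far from coding starts. The median distance to the nearest coding TSS was 4012 bp, against 698 bp over the main list. A lncRNA TSS was the nearest for 27 of 34, against 10% over the main list; both this count and the distance to coding starts follow largely from the choice of lncRNA genes that were nearest to a strong peak, and nothing is read from them. By position 8 were in exons, 12 in introns and 14 between genes. Of 16 other genes with a TSS within 10 kb of one of the 4, 5 had a summit within 500 bp, and these were CG15628, CG42808, lncRNA:CR44868, lncRNA:CR44365 and lncRNA:CR31840. Of 11 coding neighbours 2 were among them (18.2%), a share near that of all coding genes, 15.5% (2168 of 13968). All of the lncRNA neighbours were among them, against 4.99% of all lncRNA genes, but they lie in loci chosen for strong peaks, so nothing is read from this. The share over genes of every kind is not given here. The 11 neighbours without such a summit were CG15629, mir-4910, CG3225, CG31821, CG13244, CG42807, bgm, NimC3, hll, CG18095 and the antisense gene asRNA:CR44849.

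The peaks that chose the genes stood at 1280 to 5483 bp from the nearest coding TSS, and 0 of 4 were within 1000 bp of one. The rule took peaks with a lncRNA TSS nearer than any coding TSS, so it used this distance, and the values that follow are a description only. Of the other 16 peaks among the 20 strongest, 8 were within 1000 bp, with a median of 1015 bp, and over all 3810 peaks 55.0% were. The cut at rank 20 was narrow: rank 20, near CG9331, had 1741 and rank 21, near CG11050, had 1738. The peak of 1680 at lncRNA:CR45297 was just outside at rank 22.

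Peak number around the genes ranged from 4 to 15. Over all lncRNA genes 4.83% (94 of 1945) had 4 or more summits within 10 kb, the median was 0, and 64.1% had none. Counts of 10 or more were found at 5 lncRNA genes: lncRNA:CR44365 with 17, lncRNA:CR44366 with 15, and lncRNA:CR43287, lncRNA:CR44867 and lncRNA:CR44868 with 10 each. These are not 5 separate places, because lncRNA:CR44365 and lncRNA:CR44366 share peaks, as do lncRNA:CR44867 and lncRNA:CR44868. At lncRNA:CR45352 and lncRNA:CR45297 crowding was common by the measure of the peaks themselves: 22.2% and 12.7% of main-list peaks had at least as many other summits within 10 kb as their strongest peaks did, against 1.57% for lncRNA:CR44867 and 0.997% for lncRNA:CR44366.

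**Figure D2:**
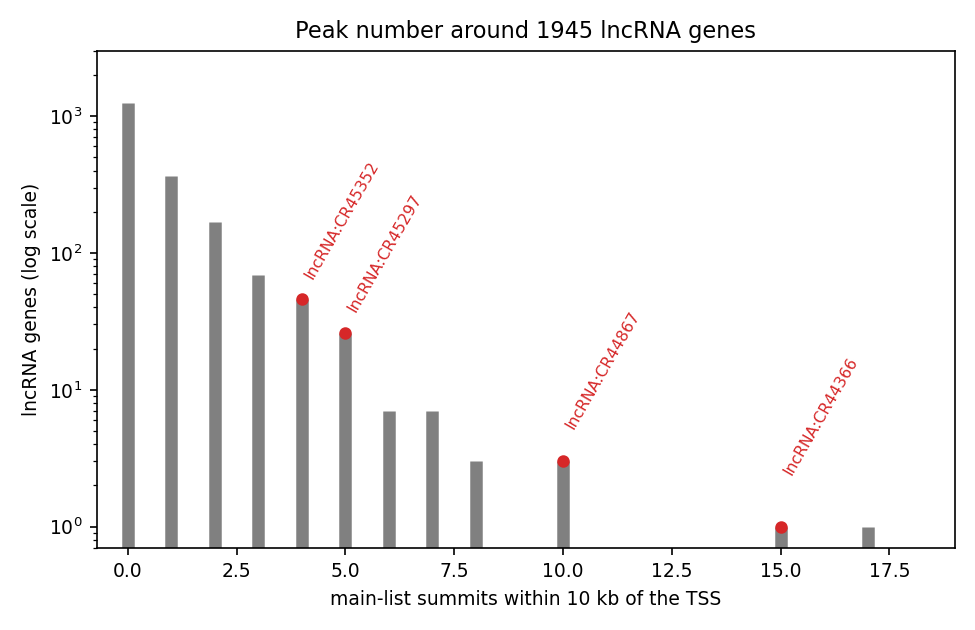
Number of lncRNA genes (log scale) by the number of main-list summits within 10 kb of the TSS, with the 4 genes marked in red. The 4 genes stand at 4, 5, 10 and 15 summits, while the median lncRNA gene has 0.

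A lncRNA gene was the nearest gene for 10% of main-list peaks (381 of 3810), and 8.74% of all annotated TSSs are of lncRNA genes. The share was 20% among ranks 1 to 20 (4 of 20, 95% Wilson interval 8.07 to 41.6%), which is the choice of the genes itself. It was 17.5% in ranks 21 to 100 (14 of 80) and 10.5% in the next 400 ranks (42 of 400). The 4 loci held most of the lncRNA peaks of the first 100 ranks: of 18 such peaks, 14 lay within 10 kb of the 4 genes. Of the 86 peaks of those ranks outside the 4 loci, 4 had a lncRNA gene nearest (4.65%, 1.82 to 11.4%). The 4 loci were chosen for a lncRNA TSS nearest to a strong peak, so leaving them out lowers this share by the choice itself. Nothing is read from its difference to the other shares. Intervals cover the counting of peaks only.

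**Figure D3:**
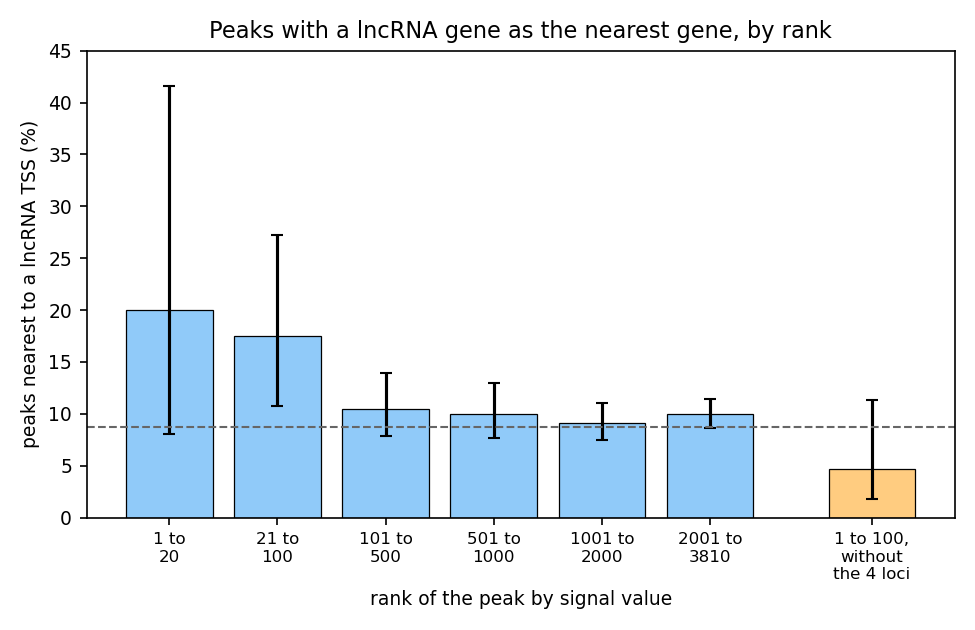
Percent of main-list peaks whose nearest TSS is of a lncRNA gene, by rank of signal, with 95% Wilson intervals as error bars; the dashed line is the share of lncRNA TSSs among all TSSs, 8.74%. The bars of the first 100 ranks, 20% and 17.5%, are above the rest. The orange bar, 4.65%, is the first 100 ranks without peaks within 10 kb of the 4 genes, a share lowered by the choice of those genes.

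Between the replicates, 28 of 34 peaks were matched in both thresholded lists, with summits within 100 bp of the main one, and 27 of the 28 were higher in replicate 1. On the log2 scale the replicate 1 value divided by that of replicate 2 had a median of 0.32, from -0.34 to 1.37. Over all 1774 main-list peaks matched in both the median was -0.05 with an SD of 0.43, and 45.7% were higher in replicate 1. At the strongest peaks the ratio was 0.25 for lncRNA:CR45297, 0.43 for lncRNA:CR44867, 0.57 for lncRNA:CR44366 and 0.34 for lncRNA:CR45352. Those of lncRNA:CR45297 and lncRNA:CR45352 were within 1 SD of the median of all peaks, and the other pair was beyond it. The 500 strongest peaks, of which 496 were matched, had a median of -0.04 with an SD of 0.40, near that of all peaks. The 20 strongest, which include these 4, had a median of 0.31 with an SD of 0.21. Against that set only lncRNA:CR44366 was beyond 1 SD. A higher replicate 1 value was not seen at these genes alone, but elsewhere it varied with position. Among the 48 peaks of the first 100 ranks that were outside the 4 loci and over 500 bp from a TSS, 35 were higher in replicate 1, with a median of 0.25. Over all 86 peaks of those ranks outside the loci it was 51 (59.3%), with a median of 0.13. Within 500 bp of a TSS it was 6 of 8 in ranks 1 to 20 and 10 of 30 in ranks 21 to 100. Depth per library is unknown, and its part in the ratio was not tested.

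The replicates differed most upstream of lncRNA:CR44366. At 9462 bp upstream the signal was 207 in replicate 1 and 92.9 in replicate 2, and at 8714 bp it was 91.8 and 35.4. At 8210 bp it was 166 and 72.4, and at 3350 bp 75.5 and 31.2, the last with the replicate 2 summit 86 bp away. These 4 log2 ratios, 1.16 to 1.37, were above 1, as were 26 of all 1774 (1.47%). At the site 3350 bp upstream, replicate 2 also held a higher summit, of 38.6, too far from the main summit to be matched. The ratio there used the lower summit, of 31.2, so its place above 1 rests on the matching. The 9 matched peaks from 1728 bp upstream to 6785 bp downstream had ratios of 0.03 to 0.57.

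**Figure D4:**
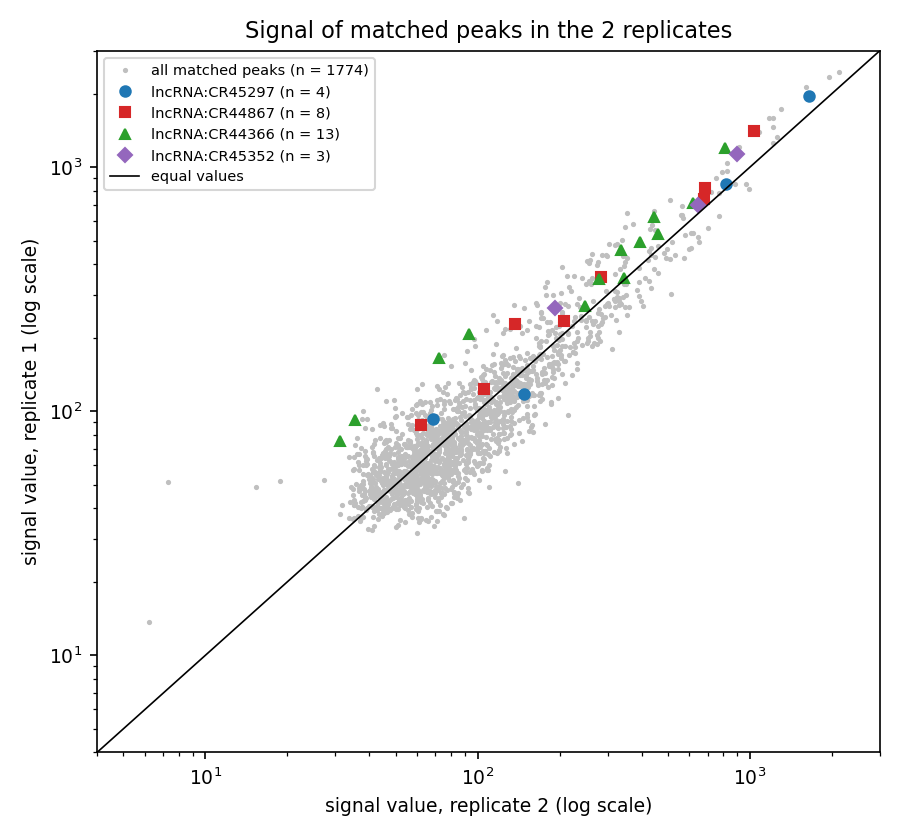
Signal value in replicate 1 against replicate 2 (both log scales) for the 1774 main-list peaks matched in both replicate lists, in grey, with the peaks near each of the 4 genes in colour and the line of equal values in black. Of 28 coloured points 27 lie above the line, and 4 of lncRNA:CR44366 lie farthest above it. The point for the site 3350 bp upstream of that gene uses the lower of the replicate 2 summits there.

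In all, 6 main-list summits were not matched in both replicate lists. They were the one at 9616 bp upstream of lncRNA:CR45297, those 1539 bp upstream and 1913 bp downstream of lncRNA:CR44867, those 6831 bp upstream and 8365 bp downstream of lncRNA:CR44366, and the one 357 bp upstream of lncRNA:CR45352. The conservative list held 33 of the 34 summits at the same base, missing that at 6831 bp, and added 4 of 12.3 to 146. Within the same distance the replicate 1 list held 31 and the replicate 2 list 34. The ranked lists, which hold peaks below the threshold, added only weak ones: of 84 summits in one of the series' ranked lists 47 were in no thresholded list. The 3 highest of these were 48.4 at 2488 bp upstream of lncRNA:CR44366, 47.4 at 7954 bp upstream of lncRNA:CR44867 and 46.2 at 6746 bp downstream of lncRNA:CR45352.

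No 6-base word was held by all of the windows reaching 50 bp to each side of the 4 strongest summits, nor by 3 of them. Median GC content over the 34 windows was 47.0%, from 26.7 to 56.4%, against 34.7% over all main-list windows and 43.6% in windows 300 bp to each side of the 34. In the first 100 ranks it was 47.5% in the 14 peaks within the 4 loci and 41.1% in the 86 outside. Of those 86, the 48 over 500 bp from a TSS had 48.0%. At lower ranks it was 45.5% in the 20 peaks within the loci and 34.7% in the 3690 outside. The likeness to peaks elsewhere therefore holds only for strong peaks away from TSSs. No run of 31 bases in any of the 34 peaks occurred again in the assembly.

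Of 16 sequence elements searched on both strands, TATCGATA of DREF, GGTCACAC of M1BP, CAGGTAG of Zelda and GCATACTT of Su(Hw) were in 0 of 34 windows. They were also rare over the main list, in 1.44%, 0.499%, 0.630% and 0.630% of windows, so a count of 0 is near the background. The same holds for CATCNCTA (motif 7), CACGTG (an E-box), GCCATNTT (Pho), TGACTCA (AP-1) and AGGTGGCG (CTCF). Each was in 0 of 34 windows, against 0.472 to 1.76% over the main list. The E-box CANNTG was in 12 of 34 (35.3%), the same share as over the main list (35.3%), and the initiator word TCAGT in 7 (20.6%, main list 16.7%). No match says nothing of the factors. The word CAGGCG came from the 86 peaks of the first 100 ranks outside the 4 loci, where 27.9% held it, against 4.07% of their flanks. Among those of the 86 over 500 bp from a TSS, 19 of 48 held it (39.6%). Near the 4 genes it was in 12 of 34 windows (35.3%), in 8.82% of their flanks and in 4.23% of all main-list windows. It was in 8 of the 14 peaks of the first 100 ranks and in 4 of the 20 weaker ones. By gene it was in 0 of 5 windows of lncRNA:CR45297, 4 of 10 of lncRNA:CR44867, 5 of 15 of lncRNA:CR44366 and 3 of 4 of lncRNA:CR45352. Peaks that held it had a median signal of 903 (210 to 2526), and the 22 others one of 278 (61.8 to 3736). Not every word from the same 86 peaks carried over to the 4 genes. The word GCGCCC was in 18.6% of those peaks and in 2.91% of their flanks. Near the 4 genes that word was in 1 of 34 windows (2.94%, main list 3.33%). The word AGGCGC was in 20.9% of the 86 peaks and in 6 of the 34 windows (17.6%, main list 3.10%). A match is a description of the letters, not a shown binding site.

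The lncRNA genes most like these, by the next highest signal of a peak nearest to them, were lncRNA:CR31840 (1369, rank 31) and lncRNA:CR44365 (1069, rank 45), both within the loci already described. lncRNA:CR44619 on X followed with 1058 (rank 47), in a peak 465 bp upstream of its TSS that had 460 in replicate 1 and 596 in replicate 2, the reverse order of the strongest peaks here. lncRNA:CR44339 on 2R had 988 (rank 53), 646 bp downstream of its TSS and 5019 bp from that of the Polycomb group gene Psc. lncRNA:CR46259 on 2L had 730 (rank 87), 8662 bp upstream of its TSS; the nearest coding TSS, 12568 bp away, was that of ush, which encodes a zinc finger partner of GATA factors. All 5 were below the 4 genes by signal, as the choice by rank sets.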

How the data were processed

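The files hold 8 peak lists in narrowPeak form on dm6: a ranked and a thresholded list per replicate and, from the 2 replicates together, 2 ranked lists, a thresholded list (the main list, 3810 peaks on 7 chromosomes) and a conservative one. Per the deposited description files they were made from aligned reads of the replicates and of a control; neither aligner nor peak caller is given in the sources used here. For every peak there is the authors' signal value, a score of unstated scale, and the authors' IDR score. A −log10 IDR column of the deposited ranked lists stayed unused. No read totals were analysed here, and the depth of each sample is therefore unknown.

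Genes came from Ensembl release 115 (BDGP6.54), without transposons and single mature microRNAs; a lncRNA gene has a symbol that starts with lncRNA. Every peak end lay within the length of its chromosome in this assembly. Summits were matched between lists within 100 bp. Windows of 50 bp to each side of a summit were read from the RefSeq genome, with flanks 300 bp to each side. Positions are 1-based. Counts used Python 3.11.15, numpy 2.4.6, pandas 2.3.3 and scipy 1.17.1, tested on simulated peaks. No p-value was computed: 1 group of 2 samples allows no test between conditions.

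The text names the 4 genes, every gene with a TSS within 10 kb of theirs, and the 5 lncRNA genes next in signal. The strongest 3 summits outside thresholded lists were also kept. Members, lists and elements were chosen with earlier results of these data known. Alternatives were other lists, distances, TSS sets and signal minimums.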

Additional observations from a re-analysis of the deposited data

How the results depend on the processing

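The count of 34 summits near the 4 genes and the finding of a summit within 500 bp of each of them changed by less than 1.5 times under every alternative run (24 summits at 5 kb, 49 at 20 kb, 31 and 34 in the single replicates). The log2 ratios at the 4 strongest peaks were rerun only with the ranked lists and with centring on the median ratio. The ranked lists hold the same replicate values for these peaks, and centring shifts every ratio equally. Neither setting could move the ratios by the spread over all peaks, so nothing is read from their stability. The background share of lncRNA genes with a summit within 500 bp, 4.99%, moved with the settings. It was 5.04% in the conservative list, 3.86% in either replicate alone (the range without replicate 1 or 2 is 3.86 to 3.86%), 2.72% at 250 bp and 8.12% at 1000 bp. It was 3.24% with peaks above the median signal, 4.37% among lncRNA genes with no coding TSS within 1000 bp, and 5.19% with antisense RNA genes included, a setting chosen after seeing the data. The share of peaks nearest to a lncRNA TSS, 10%, was 8.95 to 10.2% in the single replicates and 12.5% with 1 TSS per gene. The cause was not tested for any of these.

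No paired analysis was possible because there is only 1 group. With 2 replicates of unknown depth, a difference in signal between libraries and one in binding cannot be told apart. A summit missing from a list shows only that it did not pass there.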
